A study of Mus musculus with 10 samples.

Results

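The 9 genes described here encode surface receptors with which hematopoietic stem cells find and hold their bone marrow niche. They are the chemokine receptor Cxcr4, the integrin α subunits Itga4, Itga5, Itga6 and Itgal, the integrin β subunits Itgb1 and Itgb2, the hyaluronan receptor Cd44 and the selectin ligand Selplg. They were chosen by gene symbol and are 9 of the 33393 genes in the data, with 45 of the 95912 transcripts. RNA-seq was performed on CD34- HSCs (Lin-, Sca-I+, cKit+, CD34-, Flt3- cells) sorted from the femoral bone marrow of C57BL/6 mice at 8 weeks of age. The 5 Reg1Δ/Δ mice carried Vav1-iCre and 2 loxP-flanked alleles of Reg1, written Reg1flox/flox, while the 5 control mice carried the same Reg1flox/flox alleles without the Cre. Vav1-iCre is active throughout the blood lineage and not in stem cells alone, so mature blood cells carry the deletion too. The libraries came in 2 sets, told apart by their names, with 3 mice per group in the first set and 2 per group in the second.

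In the marrow, stromal cells release the chemokine CXCL12, which attracts and retains stem cells through Cxcr4. Integrins are pairs of an α and a β chain that bind matrix and cell surface ligands: Itga4 with Itgb1 binds VCAM1 and fibronectin, Itga5 with Itgb1 binds fibronectin, Itga6 with Itgb1 binds laminins, and Itgal with Itgb2 binds ICAM1. Selplg encodes PSGL-1, a mucin that lets blood cells roll on selectins once it carries the right sugars. Cd44 binds hyaluronan in the marrow matrix.

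Several of these genes make more than 1 protein by alternative splicing, and the stretches that tell these forms apart are given first because the values of single transcripts depend on them. Itga6 has alternative ends of its cytoplasmic tail, known as the A and B forms. In GRCm38, with GENCODE M21 gene models, the exon that ends the coding part of transcript Itga6-201 has its coding bases at chr2:71853534-71853638 on the plus strand, and that of Itga6-202 has them at chr2:71855854-71856012. Both are shown 5′ to 3′ after the 30 coding bases that the forms share, with the bases specific to each form in capitals. In Cxcr4, on the minus strand of chromosome 1, the first coding stretch of Cxcr4-201 (chr1:128592189-128592209) is longer than that of Cxcr4-202 (chr1:128592195-128592209) by 6 bases, in capitals. In Cd44, on the minus strand of chromosome 2, the variable exon at chr2:102831330-102831536, in capitals, separates Cd44-206 from the standard form Cd44-203, which joins the flanking bases directly.
Itga6-201: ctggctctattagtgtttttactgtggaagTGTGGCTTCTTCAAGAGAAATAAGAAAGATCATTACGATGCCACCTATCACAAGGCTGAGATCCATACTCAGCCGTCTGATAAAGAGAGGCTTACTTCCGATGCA
Itga6-202: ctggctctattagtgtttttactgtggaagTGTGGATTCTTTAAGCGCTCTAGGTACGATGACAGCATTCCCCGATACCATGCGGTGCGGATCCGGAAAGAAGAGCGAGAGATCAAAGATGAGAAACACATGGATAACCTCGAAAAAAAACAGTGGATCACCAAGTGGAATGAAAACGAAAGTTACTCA
Cxcr4-201: atggaaccgatcagtGTGAGT
Cxcr4-202: atggaaccgatcagt
Cd44-206: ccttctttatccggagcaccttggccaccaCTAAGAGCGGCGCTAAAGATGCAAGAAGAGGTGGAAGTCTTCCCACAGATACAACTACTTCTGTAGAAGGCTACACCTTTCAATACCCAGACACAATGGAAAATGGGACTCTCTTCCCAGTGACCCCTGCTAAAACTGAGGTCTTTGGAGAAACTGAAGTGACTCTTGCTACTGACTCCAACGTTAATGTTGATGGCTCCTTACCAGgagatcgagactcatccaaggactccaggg

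Values are TPM, the abundance of a transcript per length relative to all others in its library, summed over the transcripts of a gene. TPM sums to 1000000 per library whatever the number of reads, so the depth behind a value is not known and no counting interval is given. The 12874 genes that reached 1 TPM in 5 or more libraries entered a limma fit of log2(TPM + 1) on group and library set, and a gene was called at a Benjamini-Hochberg adjusted p under 0.05. The fold changes below are on the log2(TPM + 1) scale, which understates the change of low genes, and are Reg1Δ/Δ minus control. All 9 genes had a TPM of at least 1 in all 10 libraries, so none entered the test through 1 group alone.

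The libraries of the sets differed in make-up: protein-coding transcripts held 46.2% to 49.1% of TPM in the first set and 73.5% to 81.1% in the second. The sources name 2 versions of the cDNA kit without tying them to samples, so kit and set cannot be told apart. Zc3h12a, the mouse gene for Reg1, did not follow the labels: it lay between 1.28 and 6.07 TPM in the controls and between 2.08 and 10.3 TPM in the libraries labelled Reg1Δ/Δ, which were above the controls within each set. Transcript totals do not show whether those reads lie in the deleted part, so every direction here is a direction between labels. Separate qRT-PCR of this gene by the study was not analysed here. Of 12 stem cell markers, 11 were tested and 10 were lower in the libraries labelled Reg1Δ/Δ, beside 37.9% of all tested genes. Among the 11, 1 passed the filter through the controls alone and had to be lower. The 12 markers summed to 235 to 609 TPM against 992 to 1114 TPM in the controls of the first set. In the second set they summed to 235 to 258 TPM against 470 to 664 TPM. Ly6a, which encodes the gate's own marker Sca-1, had a log2 fold change of 0.92 that did not pass the test. Cd34, whose protein the gate excludes, was at 51.9 to 236 TPM in the controls and 9.54 to 19.8 TPM in the libraries labelled Reg1Δ/Δ.

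Of the 9 genes, 6 were lower in the libraries labelled Reg1Δ/Δ, none was higher and 3 did not pass the test. The genes that fell were Selplg, Itgal, Cxcr4, Itgb2, Itga6 and Itga4, and those that did not pass were Itga5, Itgb1 and Cd44. Lower values were common in these data: limma called 37.9% of all tested genes lower and 15% higher, and no gene of the 9 was higher at an unadjusted p under 0.05 either. The same 6 genes were also lower in every library labelled Reg1Δ/Δ than in every control of its set, as were 31.4% of all tested genes, while 12.7% were higher in that sense. The median log2 fold change of the 9 genes was -0.97, against -0.25 over all tested genes. The RNA was measured in bulk, so fewer cells with a transcript and less of it per cell cannot be told apart.

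**Figure D1:**
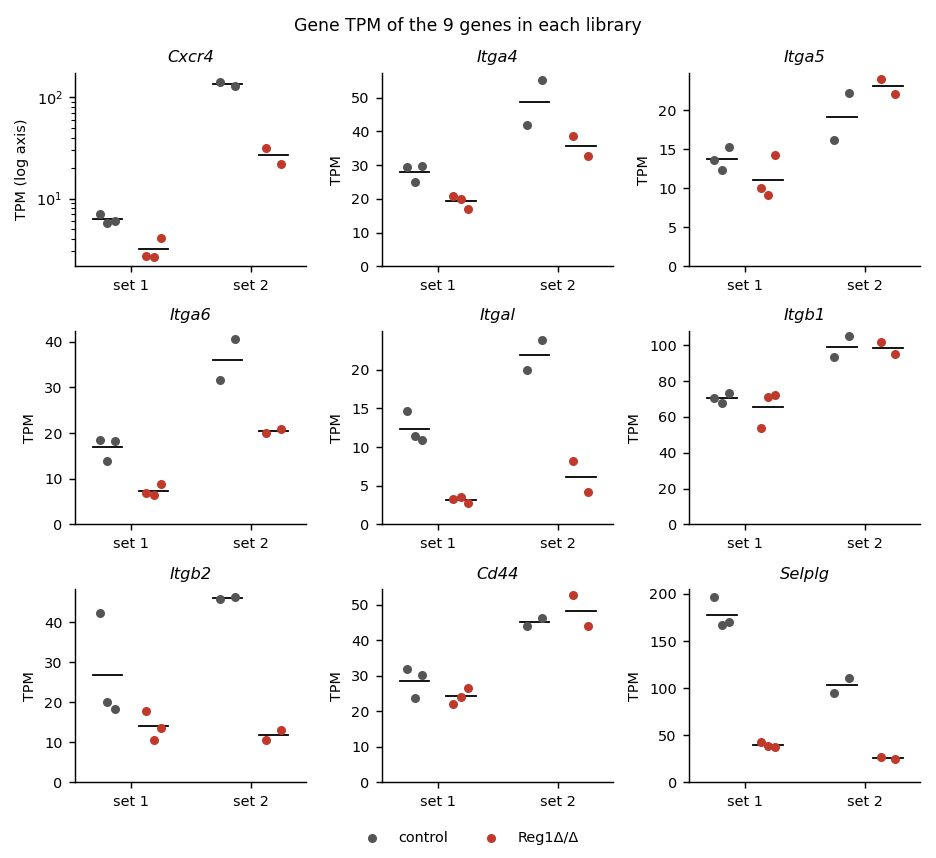
TPM of each of the 9 genes (y axis, log scale for Cxcr4 alone) in each of the 10 libraries, by library set (x axis), with controls in grey and libraries labelled Reg1Δ/Δ in red. Points are single libraries and bars are means. The groups are apart within both sets for Cxcr4, Itga4, Itga6, Itgal, Itgb2 and Selplg, and overlap in at least 1 set for Itga5, Itgb1 and Cd44.

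The order of the levels in the controls differed between the sets. In the first set Selplg was highest at 178 ± 15.9 TPM (SD, n = 3), Itgb1 was next at 70.4 ± 2.64 TPM, and Cxcr4 was lowest at 6.25 ± 0.672 TPM. Between them, Cd44, Itga4 and Itgb2, with means of 28.6, 28.0 and 26.9 TPM, overlapped in their libraries and cannot be ordered, and Itga6 (16.9 TPM), Itga5 (13.7 TPM) and Itgal (12.4 TPM) each overlapped with its neighbour. In the second set Cxcr4 was highest at 137 ± 7.88 TPM (SD, n = 2), and its libraries lay above those of Selplg at 103 ± 11.4 TPM and Itgb1 at 99.2 ± 8.49 TPM, which overlapped each other. Cxcr4 was thus 21.8 times as high in the controls of the second set as in those of the first. For the 7 genes other than Cxcr4 and Selplg this ratio lay between 1.40 and 2.14, and for Selplg it was 0.579.

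Cxcr4 (ENSMUSG00000045382, chr1:128588199-128592293, minus strand), the receptor for CXCL12, was lower in the libraries labelled Reg1Δ/Δ in both sets. In the first set the controls had 7.01, 5.73 and 6.01 TPM and the libraries labelled Reg1Δ/Δ had 2.69, 2.61 and 4.11 TPM. In the second set the controls had 142 and 131 TPM and the libraries labelled Reg1Δ/Δ had 31.6 and 21.9 TPM. No library labelled Reg1Δ/Δ reached a control of its set, although those of the second set were well above the controls of the first. The log2 fold change was -1.43 ± 0.28 (standard error; limma, adjusted p = 0.00192). Controls were 1.99 times as high as the libraries labelled Reg1Δ/Δ in the first set and 5.11 times as high in the second, on mean TPM.

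The difference in Cxcr4 was larger in the second set by 1.51 on the log2 scale (95% CI of second minus first -2.19 to -0.82), but this interaction did not pass in limma (adjusted p = 0.0973). It was the 1 gene of the 9 with an unadjusted interaction p under 0.05, and limma called an interaction for none of the 9 and for 0.443% of all tested genes. After quantile normalization the interaction for Cxcr4 passed, while its overall log2 fold change became -0.95 and no longer did (adjusted p = 0.0800). Cxcr4 is also made by mature neutrophils and B cells. The marker lists here covered neutrophils together with their precursors, and the B lineage. Both sums were, like Cxcr4, lower in the libraries labelled Reg1Δ/Δ within each set and highest in the controls of the second set. The summed neutrophil markers were 3113 to 5543 TPM in the controls of the first set and 12050 to 13932 TPM in those of the second, against 316 to 969 TPM and 839 to 887 TPM in the libraries labelled Reg1Δ/Δ. The summed B lineage markers were 194 to 1278 TPM and 1440 to 1646 TPM in the controls, against 5.59 to 26.1 TPM and 3.37 to 8.77 TPM. The sort on Lin-, Sca-I+, cKit+ cells is meant to remove such cells, and their part in the Cxcr4 values was not tested.

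Both coding transcripts of Cxcr4 fell. Cxcr4-201, the longer at 1805 nt, had 3.13 to 4.13 TPM in the controls of the first set and 1.45 to 2.30 TPM in the libraries labelled Reg1Δ/Δ, and 89.8 and 91.8 TPM against 17.1 and 18.7 TPM in the second. Its log2 fold change was -1.37 (limma, adjusted p = 0.00789). Cxcr4-202, which lacks the 6 bases in capitals above and whose coding part is incomplete in the annotation, had a log2 fold change of -1.30 (limma, adjusted p = 0.0410), and its groups overlapped in the first set. Cxcr4-201 held between 52.0% and 78.4% of the gene's TPM across the 10 libraries, with no split of the groups.

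By the deviations of log2(TPM + 1) from the set means over the 10 libraries, the tested protein-coding genes most like Cxcr4 were Rbbp4, which encodes a histone-binding chromatin protein (Pearson r = 0.986), Plekhg3 (r = 0.981) and Fam101b (r = 0.977). These r values describe 10 libraries that share 2 groups, and the genes were picked as the highest of all those tested. Plekhg3 was at 1.23 to 5.01 TPM in the controls and at most 0.358 TPM in the libraries labelled Reg1Δ/Δ. Fam101b was at 1.42 to 8.27 TPM and at most 1.08 TPM, and both were highest in the controls of the second set, like Cxcr4. Plekhg3 passed the filter through the controls alone, and Fam101b through them and 1 library labelled Reg1Δ/Δ, so both had to be lower. Rbbp4, at 94.6 to 191 TPM in the 10 libraries, moved far less, with a log2 fold change of -0.43.

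Among the α subunits that pair with Itgb1, Itga6 and Itga4 fell and Itga5 did not pass the test. Itga6 (ENSMUSG00000027111, chr2:71745616-71858416, plus strand), the laminin-binding chain, had 18.5, 13.9 and 18.2 TPM in the controls of the first set and 6.85, 6.39 and 8.85 TPM in the libraries labelled Reg1Δ/Δ. In the second set the controls had 31.6 and 40.6 TPM and the libraries labelled Reg1Δ/Δ had 19.97 and 20.9 TPM. The groups did not overlap in either set, and the log2 fold change was -0.97 ± 0.14 (standard error; limma, adjusted p = 0.0003). The second set alone gave -0.78, which did not pass (adjusted p = 0.0774).

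Itga6-201, with the tail exon at chr2:71853534-71853638, was the main coding transcript of Itga6, at 45.8% to 64.1% of the gene's TPM in the 10 libraries. It had 6.85 to 10.5 TPM in the controls and 4.05 to 4.86 TPM in the libraries labelled Reg1Δ/Δ of the first set, and its log2 fold change was -0.80 (limma, adjusted p = 0.00995). Itga6-202, with the other tail, was at most 0.0547 TPM in any library. This near absence of Itga6-202 does not settle which tail was made, because the short transcript Itga6-203, which has no annotated coding part, skips the exon of Itga6-201 and uses the same junction as Itga6-202. Itga6-203 held 28.9% to 46.1% of the gene's TPM and fell alongside, with a log2 fold change of -0.77 (limma, adjusted p = 0.0155).

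Itga4 (ENSMUSG00000027009, chr2:79255426-79333123, plus strand), the chain that binds VCAM1, fell by the least of the 6. Controls had 29.3, 24.9 and 29.8 TPM in the first set and 42.0 and 55.4 TPM in the second, and libraries labelled Reg1Δ/Δ had 20.8, 20.1 and 16.9 TPM and 38.8 and 32.6 TPM. The groups were apart within each set, but only narrowly in the second (38.8 TPM against 42.0 TPM). The log2 fold change of -0.48 ± 0.12 (standard error; limma, adjusted p = 0.00727) did not hold under other scalings, with -0.14 (adjusted p = 0.287) after median-of-ratios scaling and -0.23 (adjusted p = 0.130) after quantile normalization.

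What was counted as Itga4 RNA differed between the sets. The coding transcript Itga4-201, of 9767 nt, held 22.6% to 31.3% of the gene's TPM in the first set and 93.8% to 97.8% in the second, and the remainder in the first set lay mostly in the processed transcripts Itga4-203, Itga4-205 and Itga4-202. Itga4-201 itself had 6.61 to 8.10 TPM in the controls of the first set and 4.72 to 6.20 TPM in the libraries labelled Reg1Δ/Δ. No transcript of Itga4 passed the test on its own, the coding one having a log2 fold change of -0.40 (limma, adjusted p = 0.0777). Itga4-202 and Itga4-203 were at most 0.347 TPM in the second set, so the fit averaged their first set with values near 0. In the first set both were lower without overlap, at 0.932 to 1.69 TPM against 2.76 to 3.18 TPM and at 7.44 to 8.36 TPM against 8.80 to 12.9 TPM. Itga4-205 overlapped there.

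Itga5 (ENSMUSG00000000555, chr15:103344286-103366763, minus strand), the fibronectin-binding chain, did not pass the test, and its log2 fold change was -0.30 in the first set alone and 0.27 in the second alone. Controls had 13.6, 12.4 and 15.3 TPM in the first set and 16.2 and 22.2 TPM in the second, and libraries labelled Reg1Δ/Δ had 9.98, 9.11 and 14.2 TPM and 24.0 and 22.1 TPM. The groups overlapped in both sets. The log2 fold change was -0.07 (95% CI -0.45 to 0.31; limma, adjusted p = 0.739), and its sign depended on the scaling: it was 0.26 after median-of-ratios scaling and 0.39 after quantile normalization, where it passed (adjusted p = 0.0377).

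Itgb1 (ENSMUSG00000025809, chr8:128685654-128733200, plus strand), the shared β partner of these chains, had group means close to each other. Controls had 70.3, 67.9 and 73.1 TPM in the first set and 93.2 and 105 TPM in the second, and libraries labelled Reg1Δ/Δ had 53.9, 71.3 and 72.0 TPM and 102 and 95.1 TPM. The groups overlapped in both sets, with 1 lower library, replicate 1, among those labelled Reg1Δ/Δ. The log2 fold change was -0.07 (95% CI -0.31 to 0.18; limma, adjusted p = 0.618), which leaves room for a change of up to that size in either direction. After median-of-ratios scaling it was 0.28 and passed as higher (adjusted p = 0.0305). Itgb1-202, a form marked for nonsense-mediated decay, held 30.7% to 34.8% of the gene's TPM in the libraries labelled Reg1Δ/Δ of the first set and 19.2% to 26.0% in their controls, but in the second set the shares overlapped (19.1% to 25.0% against 20.9% to 24.5%).

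**Figure D2:**
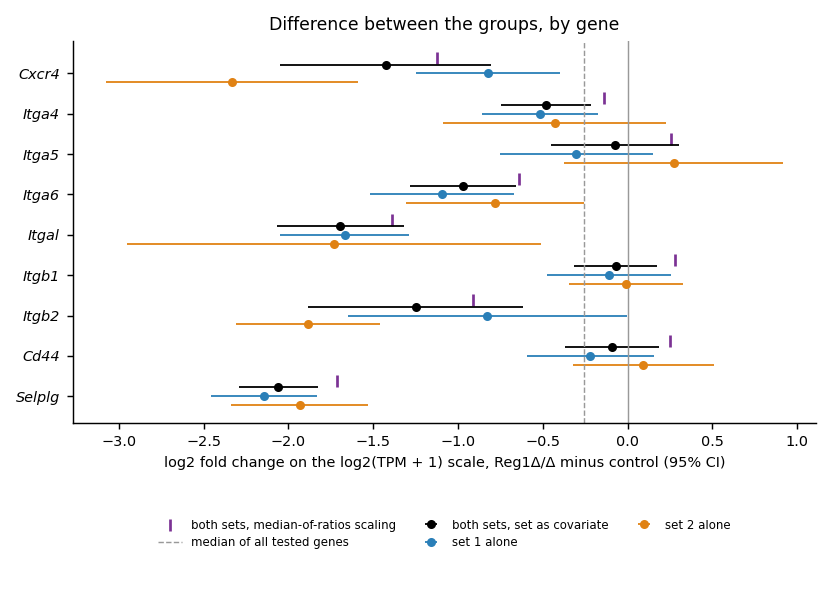
Log2 fold change on the log2(TPM + 1) scale, libraries labelled Reg1Δ/Δ minus controls (x axis), for each of the 9 genes (y axis), with 95% CIs, for both sets together and for each set alone; purple ticks give the value after median-of-ratios scaling and the dashed line the median of all tested genes, -0.25. With both sets together, Selplg (-2.06) and Itgal (-1.69) lie farthest to the left, in the second set alone Cxcr4 does (-2.33), and with both sets together Itga5, Itgb1 and Cd44 lie near 0 and cross it after median-of-ratios scaling.

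The lymphocyte and leukocyte integrin pair Itgal and Itgb2, which together form LFA-1, fell in both chains. Itgal (ENSMUSG00000030830, chr7:127296260-127335138, plus strand) had 14.7, 11.4 and 10.9 TPM in the controls of the first set and 3.30, 3.50 and 2.73 TPM in the libraries labelled Reg1Δ/Δ. In the second set the controls had 19.98 and 23.9 TPM and the libraries labelled Reg1Δ/Δ had 8.25 and 4.14 TPM. Every library labelled Reg1Δ/Δ was below every control of either set, and the log2 fold change was -1.69 ± 0.17 (standard error; limma, adjusted p = 2.87e-05).

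Itgb2 (ENSMUSG00000000290, chr10:77530252-77565708, plus strand), the β chain of all leukocyte β2 integrins, had 42.2, 20.2 and 18.4 TPM in the controls of the first set and 17.8, 10.5 and 13.7 TPM in the libraries labelled Reg1Δ/Δ. In the second set the controls had 45.9 and 46.4 TPM and the libraries labelled Reg1Δ/Δ had 10.6 and 13.0 TPM. In the first set 1 control, replicate 1, stood far above the others, and the highest library labelled Reg1Δ/Δ came close to the lowest control. The log2 fold change was -1.25 ± 0.28 (standard error; limma, adjusted p = 0.00452). In the first set alone it was -0.83 and did not pass (adjusted p = 0.0855), and in the second alone it was -1.88 (adjusted p = 0.0228).

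Several coding transcripts of this pair fell on their own. Itgb2-201, of 2970 nt, had a log2 fold change of -1.10 (limma, adjusted p = 0.00671), and its groups were apart in both sets. Much of the excess in control replicate 1 lay in Itgb2-203, a fragment of 364 nt at 16.4 TPM there, which did not pass (log2 fold change -0.37, adjusted p = 0.721). Itgal-201 was lower too (log2 fold change -1.80; limma, adjusted p = 0.00759). Itgal-203, at 2.51 to 6.43 TPM in the controls and at most 0.985 TPM in the libraries labelled Reg1Δ/Δ, entered the test through the controls alone and had to be lower. Itgal-202, which did not pass the filter, was the larger form in 1 control of the second set, at 13.1 and 7.29 TPM against 1.61 and 4.14 TPM in the libraries labelled Reg1Δ/Δ, and held all Itgal TPM in replicate LT-HSC2 labelled Reg1Δ/Δ. In the first set it was low in both groups, at most 0.341 TPM in the controls and 0.619 TPM in the libraries labelled Reg1Δ/Δ, and the groups overlapped.

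Itgal, Itgb2 and Selplg are made by mature blood cells too. Markers of such cells and their precursors moved with the groups, although the sort is meant to remove those cells. A marker near 0 in the libraries labelled Reg1Δ/Δ passed the filter mainly through the controls and had to be lower, so the marker counts are a description only. Beside the 37.9% of all tested genes called lower, 10 of 12 tested markers of neutrophils and their precursors were lower under the label Reg1Δ/Δ. All 10 tested of 12 B lineage markers were lower too, and the summed levels are given beside Cxcr4. All 4 tested of 8 T cell markers were lower, with a summed TPM of 6.88 to 16.4 against 163 to 285 in the controls of the first set and 6.84 to 10.6 against 181 to 198 in the second. Of 8 monocyte, macrophage and dendritic cell markers 5 were tested and 4 were lower, and their sums overlapped in the first set (14.4 to 181 TPM against 140 to 300.4 TPM) but not in the second (73.8 to 99.7 TPM against 175 to 183 TPM). The B lineage marker Pax5 was at most 0.0345 TPM and the neutrophil marker Retnlg at most 1.98 TPM in the libraries labelled Reg1Δ/Δ, against 0.868 to 17.8 TPM and 21.1 to 229 TPM in the controls. The part of these cells in the lower values of Itgal, Itgb2 and Selplg was not tested.

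Red cell and platelet markers split. The globins Hbb-bs, Hba-a1 and Hba-a2 fell, while Klf1, Epor and Car1, made by early red cell precursors, rose with log2 fold changes of 1.80, 1.44 and 2.24. The summed erythroid markers were higher without overlap in the libraries labelled Reg1Δ/Δ of the first set (8286 to 9088 TPM against 3356 to 6059 TPM) and overlapped in the second (7060 to 7204 TPM against 6605 to 8324 TPM). Of 7 megakaryocyte markers, 6 were tested, 4 were lower and 1 was higher, beside 37.9% and 15% of all tested genes. They summed to 92.5 to 114 TPM in the libraries labelled Reg1Δ/Δ against 247 to 467 TPM in the controls of the first set. In the second set the sums were 45.1 to 48.2 TPM against 107 to 117 TPM. Of 8 stroma and endothelium markers, 2 were tested and both were lower. In this list and in the megakaryocyte list, 1 tested marker passed the filter through the controls alone and had to be lower. The stroma and endothelium markers summed to 2.28 to 4.42 TPM in the libraries labelled Reg1Δ/Δ and 23.9 to 67.0 TPM in the controls. Cdh5 was listed at 0 in all of the former.

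Because a ratio of α to β chain within 1 library does not change with the scaling of that library, except through the pseudocount, 4 such ratios were set side by side on the log2 scale. They were tested by an exact permutation test of the labels within sets, two-sided, in which 0.0167 is the smallest p that the 120 assignments allow. Itga6 relative to Itgb1 was -1.87, -2.21 and -1.95 in the controls of the first set and -2.80, -3.29 and -2.89 in the libraries labelled Reg1Δ/Δ. In the second set it was -1.53 and -1.35 against -2.29 and -2.14. This ratio was lower without overlap in both sets, by 0.88 on average (exact permutation p = 0.0167), but over the 4 ratios the adjusted p was 0.0667.

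Itga4 relative to Itgb1 was lower by 0.41 (exact permutation p = 0.0333, adjusted p = 0.0667), with groups that overlapped in the first set. From coding transcripts alone the ratio was lower by 0.27 (exact permutation p = 0.117). Itga5 relative to Itgb1 differed by 0.04 (exact permutation p = 0.70), and by 0.24 from coding transcripts alone (exact permutation p = 0.1). Itgal relative to Itgb2 differed by -0.84 in the first set and by 0.15 in the second, and by -0.34 on average (exact permutation p = 0.317), its libraries labelled Reg1Δ/Δ of the second set lying at -0.33 and -1.45. The average rested on those 2 libraries: it was -0.06 without the one of replicate LT-HSC2 and -0.62 without the one of replicate LT-HSC1 (exact permutation p = 0.917 and 0.05). None of the 4 passed after adjustment.

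**Figure D3:**
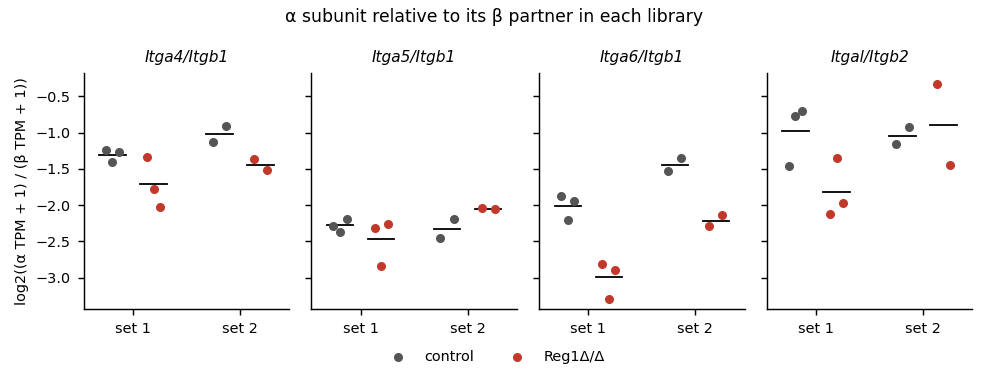
Log2 ratio of the TPM of each α subunit to that of its β partner, each plus 1 (y axis), by library set (x axis). Points are the 10 single libraries and bars are means. The groups are apart in both sets for Itga6/Itgb1 alone, where the libraries labelled Reg1Δ/Δ lie between -3.29 and -2.14 and the controls between -2.21 and -1.35.

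Selplg (ENSMUSG00000048163, chr5:113818536-113832644, minus strand) showed the largest difference of the 9 with both sets together, while in the second set alone the log2 fold change of Cxcr4 was larger (-2.33 against -1.93). Controls had 196, 167 and 170 TPM in the first set and 94.99 and 111 TPM in the second. Libraries labelled Reg1Δ/Δ had 42.5, 38.2 and 37.5 TPM in the first set and 27.4 and 25.0 TPM in the second. The highest library labelled Reg1Δ/Δ was below the lowest control of either set. The log2 fold change was -2.06 ± 0.10 (standard error; limma, adjusted p = 5.78e-07), and on mean TPM the controls were 4.52 times as high in the first set and 3.93 times as high in the second.

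The higher Selplg level in the first set lay in short transcripts. Selplg-201, the longest coding transcript at 1855 nt, had 80.7 to 103 TPM in the controls of the first set and 89.2 and 99.6 TPM in those of the second, and 18.7 to 23.7 TPM and 23.7 and 25.5 TPM in the libraries labelled Reg1Δ/Δ. Its log2 fold change was -2.01 (limma, adjusted p = 1.94e-05). Selplg-204, a fragment of 386 nt, had 54.6 to 76.7 TPM in the controls of the first set and was listed at 0 in every library of the second. Selplg-204 had a log2 fold change of -1.19 (limma, adjusted p = 0.0381), which averages the first set with the zeros of the second. In the first set its means were 64.4 TPM in the controls and 15.4 TPM in the libraries labelled Reg1Δ/Δ. Selplg-205 had a log2 fold change of -1.73 (limma, adjusted p = 0.00372). Selplg-203 had 2.53 to 15.0 TPM in the controls and at most 0.549 TPM in the libraries labelled Reg1Δ/Δ, so it entered the test through the controls alone and its lower value carries no weight.

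Cd44 (ENSMUSG00000005087, chr2:102811141-102901665, minus strand) did not pass the test. Controls had 31.9, 23.8 and 30.1 TPM in the first set and 44.0 and 46.1 TPM in the second, and libraries labelled Reg1Δ/Δ had 22.2, 24.0 and 26.7 TPM and 52.7 and 43.9 TPM. The groups overlapped in both sets, and the log2 fold change was -0.09 (95% CI -0.37 to 0.18; limma, adjusted p = 0.543), turning to 0.25 (adjusted p = 0.0505) after median-of-ratios scaling. The standard form Cd44-203, of 365 residues, had a log2 fold change of 0.11 (95% CI -0.26 to 0.49), and Cd44-207, a form of 577 residues with 5 variable exons, one of -0.27 (95% CI -0.60 to 0.06). Cd44-206, with the single variable exon shown above, had 4.25 to 10.1 TPM in the first set and at most 0.873 TPM in the second.

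Over the 9 genes, 24 of the 45 transcripts could be tested and 11 of these were lower, while none was higher by limma or at an unadjusted p under 0.05. Without Itgal-203 and Selplg-203, which passed the filter through the controls alone, 9 of 22 were lower. Over all 31937 transcripts tested, limma called 14.9% lower and 6.4% higher. The transcripts that fell belonged to Selplg, Cxcr4, Itga6, Itgal and Itgb2.

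**Figure D4:**
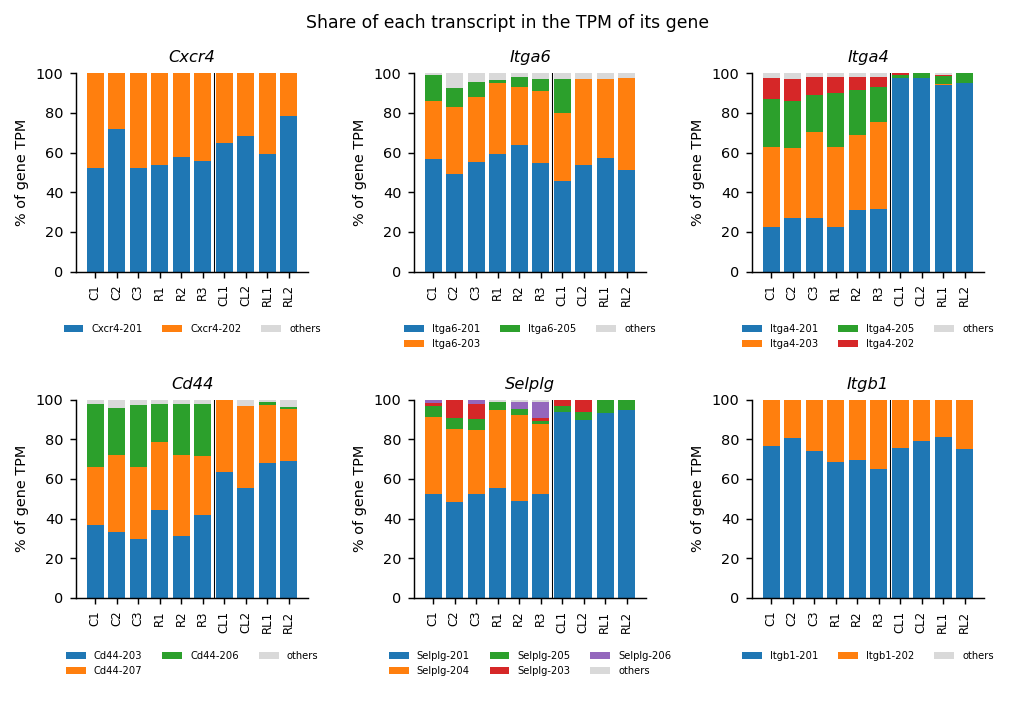
Share of each transcript with a mean of at least 1 TPM in the TPM of its gene (y axis, percent) in each library (x axis; C control, R labelled Reg1Δ/Δ, numbers as in the sample names, L for LT-HSC), with the first set left of the black line and the second right of it. Itga4-201, Selplg-201 and Cd44-203 hold larger shares in the second set than in the first in both groups.

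Genes that work with the 9 receptors were read from lists chosen by function. Many of their genes are low, and a gene that passed the filter on low values through the controls alone had to be lower, so the counts below describe the lists and are no support for a direction. They are to be read beside the 37.9% of all tested genes called lower and the 15% called higher, which became 26.6% and 30.9% after median-of-ratios scaling and 20.5% and 30% after quantile normalization. Of 21 other integrin subunits listed, 8 were tested and 7 were lower. Itgb5, a partner of the αv chain, went from 20.7 to 35.2 TPM in the controls of the first set to at most 1.66 TPM (log2 fold change -3.22). Itgam, the α chain of Mac-1 on myeloid cells, had a log2 fold change of -2.68, and the β chain Itgb2l one of -2.37. These 2 were at most 0.627 and 0.894 TPM in the libraries labelled Reg1Δ/Δ, so they passed the filter through the controls alone and had to be lower. Itgb7, which can pair with Itga4, did not pass (log2 fold change -0.17).

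Of 28 genes for integrin activation and adhesion complexes, 22 were tested, 14 were lower, 1 was higher and 7 did not pass. Rasgrp2, the exchange factor that switches on Rap1 ahead of integrin activation, fell from 137 to 242 TPM to 14.4 to 20.1 TPM (log2 fold change -3.32). Zyx, which encodes the focal adhesion protein zyxin, fell with a log2 fold change of -2.41, and Parvg, the parvin of blood cells, with one of -1.63. Talin (Tln1), which binds the integrin β tail, had a log2 fold change of -1.11, while kindlin-3 (Fermt3), its partner in blood cells, had one of -0.04 and did not pass. After median-of-ratios scaling Fermt3 passed as higher (0.31, limma adjusted p = 0.0172), and after quantile normalization it did not pass (-0.14). Parvb was higher (log2 fold change 0.47). After median-of-ratios scaling and after quantile normalization, 11 genes of this list were lower and 3 higher.

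Selplg protein binds selectins only after glycosylation and sulfation, and of 11 genes for these steps, all tested, 4 were lower and 7 did not pass, a share of lower genes near that over all tested genes. The split changed with the scaling much as it did over all tested genes, with 3 lower and 4 higher after median-of-ratios scaling and 2 lower and 4 higher after quantile normalization. Fut7, the fucosyltransferase that completes the selectin-binding sugar, had 32.6 to 37.9 TPM in the controls of the first set and 3.99 to 8.04 TPM in the libraries labelled Reg1Δ/Δ, and 9.19 and 14.6 TPM against 2.61 and 5.25 TPM in the second. Its groups were apart in both sets, and its log2 fold change was -1.95. Gcnt1, which builds the core of the sugar chain, had a log2 fold change of -0.62, which became 0.06 after quantile normalization.

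Among 31 names for Cxcr4 signalling and desensitisation, 27 genes were tested, 20 of which were lower and 2 higher, against 16 and 3 after median-of-ratios scaling. Rgs2 and Rgs1, which shorten G protein signals, had log2 fold changes of -3.79 and -2.75, and both stood out in control replicate 2, at 199 and 367 TPM. Pik3cg, the lipid kinase subunit downstream of chemokine receptors, had a log2 fold change of -2.13. Pik3cb (0.65) and the matrix protease Mmp14 (1.30) rose. Of 18 other chemoattractant receptors 9 were tested and 7 were lower (4 lower and 2 higher after quantile normalization). Among the lower were S1pr1, the receptor for sphingosine 1-phosphate in blood (-2.11), Ccr2 (-2.68) and P2ry14 (-2.68). Of the 9 tested, 2 passed the filter through the controls alone and had to be lower.

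Of 20 other surface proteins of adhesion and homing, 18 were tested, 10 were lower and 3 higher (5 higher after median-of-ratios scaling). Esam, an adhesion protein that marks stem cells, went from 255 to 415 TPM to 15.5 to 20.4 TPM in the first set (log2 fold change -4.00). Robo4 had a log2 fold change of -3.39 and Cd34 one of -3.02. Robo4, at most 0.362 TPM in the libraries labelled Reg1Δ/Δ, passed the filter through the controls alone and had to be lower. Podxl, a sialomucin, rose from 0.834 to 5.39 TPM to 4.10 to 42.4 TPM (log2 fold change 2.54), and Cd82 (0.73) and Cd24a (0.51, adjusted p = 0.0518 after quantile normalization) were higher. Of 15 niche ligands listed, not all of them bound by the 9 receptors, 5 were tested and lower. Angpt1 (-3.06), Selp (-2.47) and Vcam1 (-2.35) led, and 1 of the 5 passed the filter through the controls alone. Cxcl12 and fibronectin were too low to be tested.

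**Figure D5:**
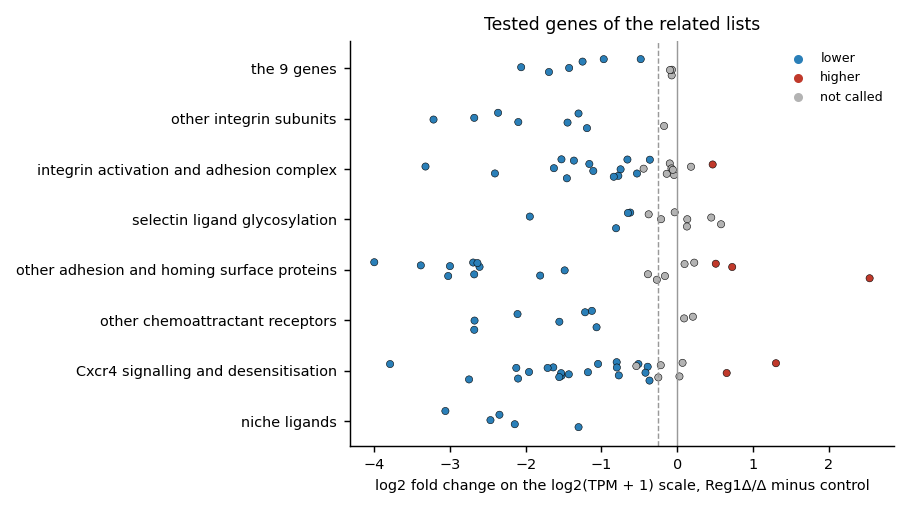
Log2 fold change on the log2(TPM + 1) scale, libraries labelled Reg1Δ/Δ minus controls (x axis), of each tested gene of the related lists (y axis, jittered within a list); blue genes were lower, red higher and grey not called by limma. The dashed line is the median of all tested genes, -0.25; most tested genes of these lists lie to its left, and Podxl lies farthest to the right at 2.54.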

How the data were processed

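CD34- HSCs of 5 Reg1Δ/Δ and 5 control mice were profiled by RNA-seq. The authors aligned reads with STAR, estimated transcript abundance with Salmon (0.9.1 in the submitters' processing notes) on GENCODE M17 and mm10, and deposited log2(TPM + 1) per transcript. From these log2 values, TPM was recovered and summed per gene, so read depth is unknown and counting intervals cannot be given. Groups and the 2 library sets came from the sample names; 1 file labelled Reg1Δ/Δ carries another sample's name in its header and was kept under its own sample.

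Genes that reached 1 TPM in 5 or more libraries were tested with limma 3.58.1 (R 4.3.3; lmFit and eBayes, pseudocount 1, library set as covariate; Benjamini-Hochberg over all genes, 0.05). Transcripts and the interaction of group and set were tested likewise, and 4 subunit ratios by exact permutation within sets. The steps were tested on simulated data. Each library was taken as 1 mouse, so p-values measure the spread between libraries within sets. Alternatives covered filters, pseudocount, covariate, scaling, coding transcripts, single sets, replicate numbers and each library left out. The genes and lists were chosen with earlier results of these data known. Beyond the 9 genes and Zc3h12a, named genes were up to 3 per list and direction with adjusted p under 0.05, groups apart in both sets and the higher group averaging 5 TPM or more, and the 3 tested protein-coding genes that correlated best with Cxcr4, at any level; Tln1, Fermt3, Itgb7, Ly6a, Pax5, Cdh5, Cxcl12 and fibronectin were named after their values were seen. Gene coordinates and transcript sequences are those of GENCODE M21 on GRCm38, matched by transcript identifier, and the promoter and protein of each gene were not used here.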

Additional observations from a re-analysis of the deposited data

How the results depend on the processing

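The 6 lower genes were called lower under every filter, pseudocount, trend and coding-transcript setting and with any 1 library left out. Of the 9 genes, 3 were lower without the library set covariate (Itgal, Itgb2 and Selplg) and 3 in the second set alone (Cxcr4, Itgb2 and Selplg). In the first set alone 5 were lower, Itgb2 no longer passing. After median-of-ratios scaling 5 were lower, without Itga4, and after quantile normalization 4, without Itga4 and Cxcr4. Quantile normalization gave 1 higher gene, Itga5 at 0.39, and 1 interaction, that of Cxcr4, and median-of-ratios scaling gave 1 higher gene, Itgb1 at 0.28. Over all tested genes these scalings moved the median upwards by 0.40 and 0.30 (log2) and turned the split of all calls from 1933 higher and 4880 lower to 3861 and 2636, and to 3973 and 3425. Selplg was called lower under all 22 alternatives. From coding transcripts alone the Itga4/Itgb1 ratio difference was -0.27 (exact permutation p = 0.117), that of Itga5/Itgb1 was 0.24 against 0.04 from all transcripts, that of Itgal/Itgb2 was -0.52 against -0.34 (exact permutation p = 0.1 for both), and that of Itga6/Itgb1 was -0.62 against -0.88. With 1 library left out the Itga4/Itgb1 difference ranged from -0.51 to -0.34 and its exact permutation p reached 0.05, without control replicate 1, 3 or LT-HSC2 and without replicate 3 or LT-HSC2 labelled Reg1Δ/Δ. The Itgal/Itgb2 ratio difference ranged from -0.62 to -0.06 with 1 library left out. That of Itga5/Itgb1 ranged from -0.02 to 0.14 and that of Itga6/Itgb1 ranged from -0.93 to -0.81. The cause of these changes was not tested. The replicate numbers were shared between groups, but deviations of same-numbered libraries correlated at 0.033, 0.175 and 0.068 in the first set and -0.054 in the second, so the numbers were not taken to pair the mice. With the replicate number as a block, 6 of the 9 genes were lower and 0 higher, and 9 of their transcripts were lower against 11 without it. The second set has 2 mice per group and no read depth is known, so differences within it are the least certain.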
